A study of Mus musculus with 18 samples.

Results

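The dental epithelium of mouse molars lacking both Hmgn1 and Hmgn2 was compared with wild-type epithelium at postnatal day 5 (P5). The comparison used the 6 P5 libraries of 18 in the series, chosen by their genotype and stage labels: 3 labelled DKO (Hmgn1-/-; Hmgn2-/-) and 3 labelled WT. The other 12 libraries are E17 (embryonic day 17) and P0 (birth) epithelium of both genotypes; only E17 is set beside P5 here. All groups share the same preparation, in which Dispase separated the molar epithelium from the mesenchyme before total RNA was depleted of ribosomal RNA and sequenced. The labels give no strain, sex, Cre driver or litter, and nothing in them ties the 3 libraries of a group to separate animals, so every p-value measures the spread between these libraries, which may be technical.

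HMGN proteins bind nucleosomes without sequence preference, compete with linker histone H1 and keep chromatin accessible. Ameloblasts, the inner layer of the dental epithelium, leave the cell cycle, polarise and then secrete the enamel matrix, which is made mainly of amelogenin with ameloblastin and enamelin and is trimmed by the protease MMP20. When secretion ends, maturation-stage ameloblasts make amelotin and ODAM, turn to the protease KLK4 and move ions and acid across the layer.

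Levels are RPKM (reads per kilobase of transcript, scaled to the mapped reads of the library) as deposited, summed over the transcripts of a gene symbol, and values are listed in the order replicate 1, 2, 3. A fold change is the difference of mean log2(RPKM + 1), DKO minus WT, given with its standard error (SE), and it understates the change of low genes. Each gene was tested in 2 limma fits, on the deposited values and after dividing each library by its upper-quartile factor. The words rose, fell and changed are kept for genes where both fits gave a Benjamini-Hochberg adjusted p under 0.05 in the same direction, and the larger of the 2 adjusted p-values is printed. Of 19450 gene symbols in the P5 table, 11423 reached 1 RPKM in at least 3 libraries and were tested, 11070 of them autosomal.

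The libraries differed in ways beyond the genotype label. Amelx alone took 38.8%, 37.95% and 33.8% of the summed RPKM in DKO libraries, against 23.1%, 24.2% and 21.7% in WT libraries. RPKM is relative to all mapped reads of a library. The middle gene of all those tested had a log2 fold change of -0.25 as deposited, -0.16 after scaling to the summed RPKM of all genes but Amelx and -0.06 after upper-quartile scaling; the part of Amelx in the shift was not tested further. The X-linked transcript Xist had 29, 32.6 and 1.06 RPKM in DKO libraries, against 0.422, 0.769 and 1.06 RPKM in WT libraries, and the Y-linked gene Eif2s3y had 1.56, 1.1 and 21.7 RPKM in DKO libraries, against 25.9, 23.8 and 24 RPKM in WT libraries. DKO replicates 1 and 2 thus had high Xist and little Y-linked RNA, while DKO replicate 3 and every WT library had the opposite, so in replicates 1 and 2 genotype and sex cannot be told apart. Skeletal muscle markers, a tissue that should be absent, summed to 7.29, 6.58 and 52 RPKM in DKO libraries, against 7.76, 6.36 and 4.93 RPKM in WT libraries; the sum was high in DKO replicate 3 alone. The results below are therefore followed, where named, by the scaled fold change of DKO replicate 3 against the 3 WT libraries, a comparison added after these values were seen and one in which the lone DKO library is assumed to vary as the WT libraries do. Deposited alignment totals were 39209676 to 72660832 per P5 library, and 1 read on a 1-kb transcript was worth 0.0324 to 0.0596 RPKM, as read from the steps between low values.

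Both targeted genes were lower in every DKO library. Hmgn2 had 9.05, 5.44 and 10.4 RPKM in DKO libraries, against 183, 166 and 166 RPKM in WT libraries, and its log2 fold change was -4.26 ± 0.16 (limma adjusted p = 3.2e-06). Hmgn1 had 72.6, 69.8 and 72.2 RPKM in DKO libraries, against 187, 189.6 and 179 RPKM in WT libraries, with a log2 fold change of -1.36 ± 0.05 (limma adjusted p = 3.2e-06). Hmgn2 transcripts were thus close to lost in DKO, whereas Hmgn1 transcripts remained at 0.386 times the WT mean; the labels do not say which exons were removed, so neither value checks the protein.

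Over all autosomal genes, 817 rose (7.38%) and 3422 fell (30.9%), together 38.3%. Of those that rose 22 had a log2 fold change of at least 1, and of those that fell 165 had one of -1 or less. With the sex chromosomes included, 840 genes rose (7.35%), 3515 fell (30.8%) and 38.1% changed, and the counts over gene lists, which include X-linked genes such as Amelx, are read against these shares. The balance between directions depended on the scaling: risen genes were 11.3% of all changed genes with the deposited values alone, 19.3% under the joint rule, 38.6% after upper-quartile scaling alone and 50.4% after median-of-ratios scaling alone. The 3 DKO libraries lay wholly above the 3 WT libraries for 8.69% of autosomal genes and wholly below them for 61.8%, as deposited. With DKO replicate 3 as the only DKO library, 465 genes rose and 1866 fell. On that comparison the median scaled log2 fold change was 0.82 for enamel matrix, 0.44 for enamel disorder and 0.30 for FGF genes. It was -0.14 for Wnt, -0.61 for mesenchymal and -1.10 for odontoblast and osteoblast genes. Immune and red cell genes both had medians of -0.16 there, against -0.17 and -0.72 with all libraries. Genes that changed with all libraries but did not pass there included Xist, Eif2s3y, Tet3, Etv4, Fgfr3, Runx2, Sox21 and H2ac24.

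**Figure D1:**
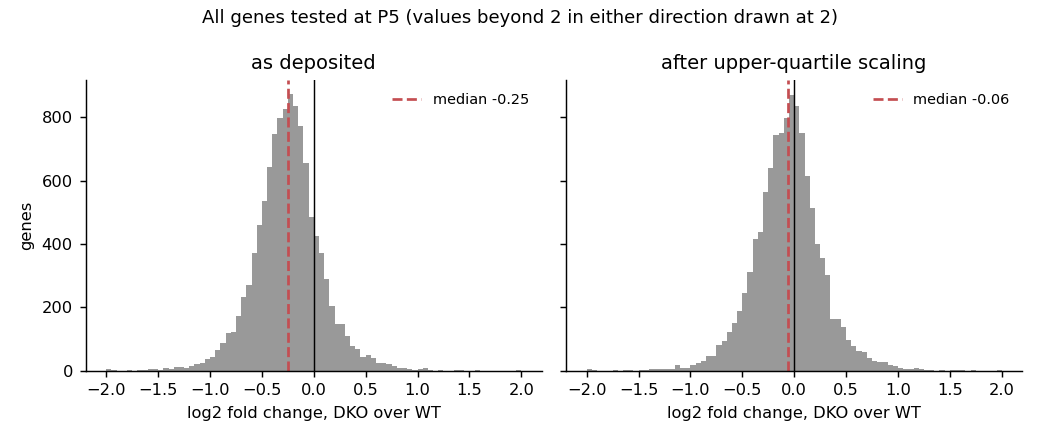
Histograms of the log2 fold change (DKO over WT, horizontal axis) of all 11423 genes tested at P5, as deposited on the left and after upper-quartile scaling on the right; the vertical axis counts genes and the dashed line marks the median. The median lies at -0.25 as deposited and at -0.06 after scaling.

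Beside Hmgn1 and Hmgn2, the related gene Hmgn3 fell, with 16.7, 17.6 and 15.2 RPKM in DKO libraries, against 29.5, 45.5 and 32.6 RPKM in WT libraries (log2 fold change -1.06 ± 0.13, limma adjusted p = 0.0018). Among 14 tested genes for HMG proteins and linker histones, 2 rose and 5 fell, the falls near the 30.8% of all genes. The 2 that rose were linker histones: H1f2 had 100.3, 96.6 and 108 RPKM in DKO libraries, against 46.7, 49.3 and 49 RPKM in WT libraries, without overlap (log2 fold change 1.05 ± 0.06, limma adjusted p = 3.9e-06), and H1f0, the linker histone of differentiated cells, had 339, 338 and 347 RPKM in DKO and 233, 215 and 207 RPKM in WT (log2 fold change 0.64 ± 0.06). The linker histones H1f3 and H1f4 fell (log2 fold changes -1.25 and -0.98), both at levels under 5 RPKM in every library. Of 40 tested histone-modifying and DNA-methylating enzymes, 8 rose and 9 fell, where 7.35% of all genes rose and 30.8% fell. Falls were thus no more frequent on this list than over all genes. Those that fell included Ezh2, the methyltransferase of Polycomb complex 2, with 2.8, 2.96 and 2.66 RPKM in DKO libraries, against 9.45, 7.57 and 8.07 RPKM in WT libraries (log2 fold change -1.30 ± 0.09, limma adjusted p = 1.6e-05), the DNA methyltransferases Dnmt1 (-0.67) and Dnmt3a (-0.52) and the deacetylases Hdac1 (-0.56) and Hdac2 (-0.68). The DNA demethylation genes Tet2 and Tet3 rose, by 0.48 and 0.28 on the log2 scale.

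Enamel matrix genes rose together: 7 of 10 tested rose and 0 fell, with a median log2 fold change of 0.77 as deposited and 0.99 after scaling. Amelx (amelogenin, chrX:169176114-169187209) had 197948, 190145 and 162338 RPKM in DKO libraries, against 103854, 108356 and 90465 RPKM in WT libraries, so that the lowest DKO library exceeded the highest WT library. Its log2 fold change was 0.86 ± 0.11 as deposited and 1.09 ± 0.13 after scaling (limma adjusted p = 0.0002), and 0.90 after scaling in DKO replicate 3 alone. Fitted without the filter on low genes, the difference did not pass (larger limma adjusted p = 0.58). The 3 Amelx transcripts in the table did not shift equally: the one that was highest in both genotypes took 38.5%, 38.8% and 39.3% of Amelx RPKM in DKO libraries, against 45.9%, 40.3% and 46.4% in WT libraries. Ambn (ameloblastin, the adhesive matrix protein, chr5:88455991-88468531) had 34521, 34643 and 31387 RPKM in DKO libraries, against 15158, 18090 and 15043 RPKM in WT libraries, with no overlap. Its log2 fold change was 1.06 ± 0.09 as deposited and 1.29 ± 0.10 after scaling (limma adjusted p = 3.7e-05). Enam (enamelin, the largest matrix protein, chr5:88487975-88506049) had 2562, 2680 and 2483 RPKM in DKO libraries, against 1743, 1593 and 1525 RPKM in WT libraries (log2 fold change 0.67 ± 0.06, limma adjusted p = 2.1e-05). Mmp20, the protease of the secretory stage, had 201, 214 and 204 RPKM in DKO libraries, against 139.5, 142 and 129 RPKM in WT libraries (log2 fold change 0.59 ± 0.06, limma adjusted p = 2e-05). For all of Amelx, Ambn, Enam and Mmp20 the spread within a genotype was small beside the gap between genotypes.

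Amtn, Csn3 and Odaph rose by more on the log2 scale, with wider spread between libraries. Amtn (amelotin, a protein of the maturation-stage basal lamina, chr5:88376108-88385916) had 130.2, 97.9 and 84.8 RPKM in DKO libraries, against 8.64, 36.3 and 18.5 RPKM in WT libraries; the log2 fold change was 2.44 ± 0.37 (limma adjusted p = 0.00096). Csn3 (kappa-casein, from the same gene cluster of secreted calcium-binding proteins) had 472, 251 and 126 RPKM in DKO libraries, against 25.7, 62.9 and 41.6 RPKM in WT libraries, a log2 fold change of 2.57 ± 0.41 (limma adjusted p = 0.0012). DKO replicate 1 was the highest library for both genes, and the lowest DKO library still exceeded every WT library. Odaph, a gene mutated in inherited enamel defects, was low, with 2.34, 2.11 and 1.19 RPKM in DKO and 0.318, 0.244 and 0.492 RPKM in WT (log2 fold change 1.07 ± 0.15). The maturation-stage genes Odam and Klk4 did not pass: Odam had 138, 160.2 and 153 RPKM in DKO libraries, against 181, 149.5 and 159 RPKM in WT libraries, which overlap, and Klk4 had 5.41, 5.66 and 4.73 RPKM in DKO libraries, against 4.09, 3.44 and 5.64 RPKM in WT libraries, of which the scaled values alone passed (scaled log2 fold change 0.42). Gm17660, listed here for SCPPPQ1, also overlapped between genotypes, with 0.516, 1.02 and 1.79 RPKM in DKO and 4.51, 1.13 and 1.83 RPKM in WT.

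**Figure D2:**
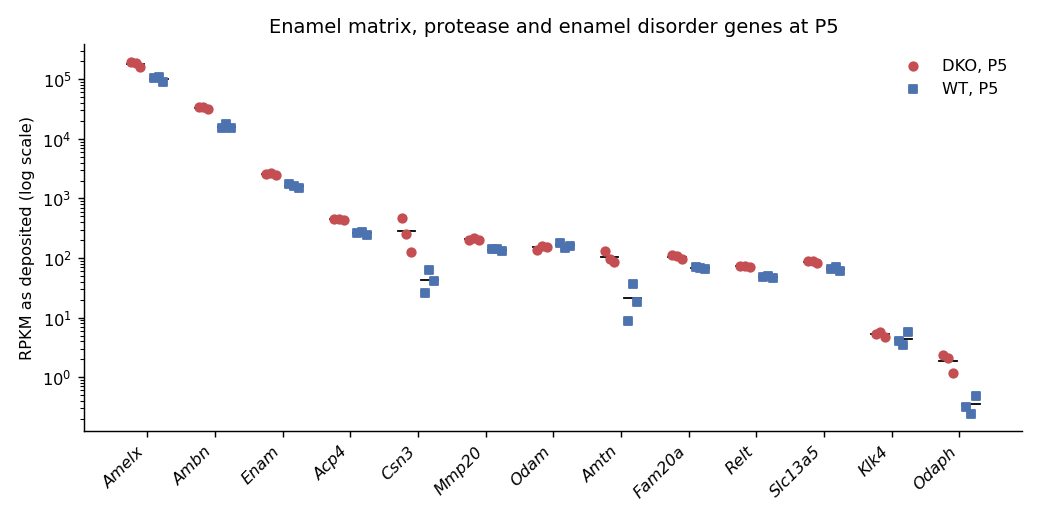
RPKM as deposited (vertical axis, log scale) of 13 enamel genes in each P5 library; circles are the 3 DKO libraries, squares the 3 WT libraries, and bars the means. Amelx, Ambn, Enam and Mmp20 lie above WT in all 3 DKO libraries with little spread, Amtn and Csn3 with wide spread, and Odam and Klk4 overlap.

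The promoters of 5 of these genes are shown because the genes rose together; each is 300 bases from 250 before to 50 after a RefSeq start on GRCm38.p6 (mm10), read 5′ to 3′ on the gene's strand. They lie at chrX:169187160-169187459 on the minus strand for Amelx, chr5:88455741-88456040 on the plus strand for Ambn, chr5:88487725-88488024 on the plus strand for Enam, chr5:88375858-88376157 on the plus strand for Amtn and chr9:7627981-7628280 on the plus strand for Mmp20. Capitals mark TATAAA and CCAAT on either strand (TTTATA and ATTGG as reverse complements).
Amelx: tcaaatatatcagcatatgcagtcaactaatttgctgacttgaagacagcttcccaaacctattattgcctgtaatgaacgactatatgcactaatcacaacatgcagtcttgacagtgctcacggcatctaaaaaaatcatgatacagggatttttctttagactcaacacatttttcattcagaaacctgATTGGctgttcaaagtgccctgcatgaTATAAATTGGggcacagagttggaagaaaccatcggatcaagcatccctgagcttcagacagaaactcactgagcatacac
Ambn: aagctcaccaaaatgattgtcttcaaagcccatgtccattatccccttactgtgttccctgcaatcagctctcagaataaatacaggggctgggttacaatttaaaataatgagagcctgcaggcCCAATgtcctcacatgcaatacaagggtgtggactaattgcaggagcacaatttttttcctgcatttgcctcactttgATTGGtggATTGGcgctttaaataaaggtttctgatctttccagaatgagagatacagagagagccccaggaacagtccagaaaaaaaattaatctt
Enam: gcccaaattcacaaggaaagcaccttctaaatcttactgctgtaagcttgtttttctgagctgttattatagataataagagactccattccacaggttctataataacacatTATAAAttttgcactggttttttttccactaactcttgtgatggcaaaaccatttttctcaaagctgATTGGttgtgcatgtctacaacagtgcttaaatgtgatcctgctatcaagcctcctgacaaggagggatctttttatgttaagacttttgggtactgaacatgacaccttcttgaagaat
Amtn: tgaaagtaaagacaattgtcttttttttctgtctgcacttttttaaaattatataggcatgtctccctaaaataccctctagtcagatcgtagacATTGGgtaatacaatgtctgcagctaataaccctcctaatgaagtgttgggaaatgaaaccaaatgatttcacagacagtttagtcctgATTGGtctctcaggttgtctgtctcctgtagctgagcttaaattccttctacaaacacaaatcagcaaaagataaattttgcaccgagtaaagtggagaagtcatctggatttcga
Mmp20: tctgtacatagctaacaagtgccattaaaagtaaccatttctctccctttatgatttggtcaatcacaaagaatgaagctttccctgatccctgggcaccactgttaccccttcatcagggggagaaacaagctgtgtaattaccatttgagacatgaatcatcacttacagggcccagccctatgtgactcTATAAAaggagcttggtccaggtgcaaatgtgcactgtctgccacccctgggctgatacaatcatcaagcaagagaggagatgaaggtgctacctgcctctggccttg
TATAAA occurred once each in the windows of Amelx, Enam and Mmp20, and in 13.62% of 32851 RefSeq promoters of that length. CCAAT occurred in those of Amelx, Ambn, Enam and Amtn and in 37.41% of all promoters. The letters are a description of these windows only.

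Genes mutated in inherited enamel defects followed, with 11 of 18 tested higher and 1 lower, and 3 of the 21 listed below the filter. Acp4, the phosphatase of secretory ameloblasts, had 458, 457 and 439 RPKM in DKO libraries, against 261, 276 and 248 RPKM in WT libraries (log2 fold change 0.79 ± 0.06, limma adjusted p = 7.3e-06). Fam20a, the partner of the secretory kinase FAM20C, had 112, 109 and 96 RPKM in DKO libraries, against 70.5, 69.1 and 65.5 RPKM in WT libraries (log2 fold change 0.62 ± 0.07, limma adjusted p = 3.9e-05), and Relt, a receptor of the TNF receptor family, had 72.9, 74.8 and 70.7 RPKM in DKO libraries, against 49, 50.5 and 46.5 RPKM in WT libraries (log2 fold change 0.57 ± 0.06). Neither gene overlapped between genotypes. The laminin-332 chain Lamb3, part of the anchor of epithelium to its basement membrane, rose by 0.60, and the integrin subunit Itgb6, which activates TGF-beta, rose by 0.46 on the log2 scale. The magnesium transport gene Cnnm4 was the one that fell, with 5.87, 5.74 and 6.23 RPKM in DKO libraries, against 12.6, 10 and 10.7 RPKM in WT libraries (log2 fold change -0.80 ± 0.09, limma adjusted p = 0.00019). Slc24a4 and Wdr72, 2 maturation-stage genes, were under the filter: Slc24a4 had 0.905, 1.42 and 1.31 RPKM in DKO and 0.185, 0.378 and 0.444 RPKM in WT, higher in each DKO library, and Wdr72 had 0.91, 0.797 and 0.898 RPKM in DKO and 1.32, 1.01 and 0.961 RPKM in WT, lower in each DKO library.

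Ion transport genes moved both ways, with 7 of 24 tested higher and 3 lower. Among those that rose were the endoplasmic reticulum pump Atp2a2 (0.50), the store channel Orai2 (0.46), the IP3 receptor Itpr1 (0.45), the bicarbonate cotransporter Slc4a4 (0.38) and the citrate carrier Slc13a5 (0.40), as log2 fold changes. Car2, carbonic anhydrase II, fell, with 10.4, 9.88 and 10.4 RPKM in DKO libraries, against 22.4, 26.8 and 22.3 RPKM in WT libraries (log2 fold change -1.14 ± 0.08, limma adjusted p = 4.9e-05), and every DKO library was below every WT library. The sodium-calcium exchanger Slc8a3 and the anion exchanger Slc26a6 were the others that fell (-0.82 and -0.44, log2 fold changes).

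Signals of the inner enamel epithelium, the layer that becomes ameloblasts, were not all alike, with 5 of 12 tested higher and 2 lower. Shh, the Hedgehog ligand of the tooth epithelium, had 44.2, 46.4 and 47.7 RPKM in DKO libraries, against 138, 86.5 and 115 RPKM in WT libraries; its log2 fold change was -1.25 ± 0.13 (limma adjusted p = 0.00027). The highest DKO library was well below the lowest WT library. Its receptor Ptch1 was higher instead: it had 42.2, 41.5 and 41 RPKM in DKO and 32.9, 29.8 and 29.2 RPKM in WT (log2 fold change 0.43 ± 0.06, limma adjusted p = 0.00017). The Hedgehog target Gli1 overlapped, with 36.9, 39.9 and 44.6 RPKM in DKO and 46.7, 38 and 40.1 RPKM in WT. Over the Hedgehog list 3 of 15 tested rose and Shh alone fell.

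BMP ligands also moved in both directions. Bmp2 had 2.21, 2.77 and 1.72 RPKM in DKO libraries, against 5.91, 8.5 and 5.99 RPKM in WT libraries (log2 fold change -1.27 ± 0.14, limma adjusted p = 0.00059), whereas Bmp4 had 72.5, 72.7 and 70.3 RPKM in DKO libraries, against 48.1, 50.5 and 46.2 RPKM in WT libraries (log2 fold change 0.56 ± 0.05, limma adjusted p = 2.2e-05). The BMP target Id3 fell by -1.03 and the feedback inhibitor Smad6 by -0.64, as signed log2 fold changes. The TGF-beta receptor gene Tgfbr1 rose, with 25, 25 and 23.1 RPKM in DKO and 15.4, 14.2 and 14.5 RPKM in WT (log2 fold change 0.69 ± 0.06, limma adjusted p = 1.6e-05), while the ligands Tgfb2 and Tgfb3 fell (-0.65 and -0.74). Over the BMP and TGF-beta list 9 of 23 tested rose and 6 fell.

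Of 12 tested genes on the FGF list, 5 rose, 1 fell and 6 did not pass. Il17rd, a feedback inhibitor of FGF signalling also called SEF, had 7.75, 7.65 and 7.77 RPKM in DKO libraries, against 2.34, 2.6 and 2.23 RPKM in WT libraries (log2 fold change 1.36 ± 0.07, limma adjusted p = 3.2e-06). Etv5, a transcription factor induced by FGF, had 9.6, 9.23 and 7.95 RPKM in DKO libraries, against 3.66, 4.02 and 3.56 RPKM in WT libraries (log2 fold change 1.06 ± 0.08, limma adjusted p = 1.7e-05). The inhibitors Spry1 and Spry2 and the factor Etv4 rose by 0.58, 0.29 and 0.42 on the log2 scale (Spry2 was lost on leaving out DKO replicate 1, DKO replicate 3 or WT replicate 3, with adjusted p up to 0.062 in limma), and the receptor Fgfr3 fell (-0.88).

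Of 22 tested Wnt genes, 4 rose and 8 fell, the falls near the 30.8% of all genes. Rspo4, a secreted enhancer of Wnt signalling, had 5, 5.04 and 2.43 RPKM in DKO libraries, against 18.5, 41.3 and 22.2 RPKM in WT libraries, a log2 fold change of -2.42 ± 0.27 (limma adjusted p = 0.00052). The secreted inhibitor Dkk1 had 0.691, 1.17 and 0.751 RPKM in DKO libraries, against 6.84, 4.75 and 4.68 RPKM in WT libraries (log2 fold change -1.77 ± 0.14, limma adjusted p = 3.7e-05). The other secreted inhibitors Wif1, Notum and Sostdc1 fell as well (-0.84, -0.69 and -0.48). The Wnt target Axin2 and the R-spondin receptor Lgr6 rose (0.57 and 1.06, log2 fold changes). Nkd1, another Wnt target on the list, fell (-0.64), so the targets did not move together. For Rspo4 and Dkk1 the DKO and WT libraries were wide apart, although the WT libraries themselves spread over a broad range for Rspo4. Of 16 tested Notch genes 2 rose and 6 fell, near the shares of all genes: the ligand Jag1 rose (0.41) and the targets Hey1 and Heyl fell (-1.15 and -0.64).

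Transcription factors of the dental epithelium included 4 that rose and 10 that fell among 36 tested, near the 7.35% and 30.8% of all genes. Irx1, an Iroquois homeobox gene, had 30.1, 27 and 27.4 RPKM in DKO libraries, against 67, 57.8 and 60.5 RPKM in WT libraries (log2 fold change -1.10 ± 0.07, limma adjusted p = 1.6e-05), and its relatives Irx3 and Irx5 fell as well (-0.74 and -0.80). Foxo1, a factor needed for enamel maturation in mice, had 18, 18.2 and 16.6 RPKM in DKO libraries, against 35.6, 33.5 and 32.7 RPKM in WT libraries (log2 fold change -0.91 ± 0.06, limma adjusted p = 2.8e-05). Ascl5, a basic helix-loop-helix factor of the dental epithelium outside that list, had 2.45, 2.93 and 2.34 RPKM in DKO libraries, against 20.1, 15.7 and 18.2 RPKM in WT libraries, without overlap, and was among the largest falls (log2 fold change -2.41 ± 0.10, limma adjusted p = 3.2e-06). Those that rose were Runx1 (0.35), Runx2 (0.26), Dlx1 (0.39) and Sox21 (0.30). Sp6 and Satb1, both named regulators of ameloblasts, did not pass: Sp6 had 158, 174 and 171 RPKM in DKO and 243, 185 and 202 RPKM in WT and Satb1 had 50.3, 50.9 and 47.1 RPKM in DKO and 60.7, 49.2 and 55.5 RPKM in WT.

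The epithelial label was checked against its markers, which were high in all 6 libraries. Krt14, a basal keratin, had 1484, 1481 and 1549 RPKM in DKO libraries, against 1760, 1522 and 1544 RPKM in WT libraries, and Krt5, its keratin partner, had 1863, 1910 and 1894 RPKM in DKO libraries, against 2284, 1830 and 1956 RPKM in WT libraries. Neither changed between genotypes under the joint rule. Of 27 tested keratin and junction genes 5 rose and 3 fell. Cldn1, a tight junction claudin, rose, with 164, 170.5 and 168 RPKM in DKO and 105, 112 and 102 RPKM in WT (log2 fold change 0.65 ± 0.05, limma adjusted p = 1.1e-05). Of 17 tested stratum intermedium genes 3 rose and 1 fell, and of 14 progenitor genes 2 rose and 0 fell. The stratum intermedium phosphatase Alpl had 218, 214 and 210.4 RPKM in DKO libraries, against 315, 254 and 269 RPKM in WT libraries, lower in every DKO library, but did not pass (larger limma adjusted p = 0.058).

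Most cell cycle genes fell, with 31 of 33 tested lower and 0 higher and a median log2 fold change of -0.79 as deposited and -0.63 after scaling. Ccnd1, the G1 cyclin D1, had 8.39, 8.83 and 7.57 RPKM in DKO libraries, against 24.3, 22.4 and 20.9 RPKM in WT libraries (log2 fold change -1.35 ± 0.08, limma adjusted p = 1e-05). Mki67, the proliferation marker, had 2.27, 2.38 and 2.45 RPKM in DKO libraries, against 6.55, 5.47 and 5.54 RPKM in WT libraries (log2 fold change -1.02 ± 0.08, limma adjusted p = 3.3e-05), and the mitotic activator Cdc20 had 3.07, 2.93 and 2.99 RPKM in DKO and 7.25, 7.04 and 7.24 RPKM in WT (log2 fold change -1.03 ± 0.07). DKO libraries were below WT libraries in each of these, and 29 of the 33 also fell with DKO replicate 3 as the only DKO library. Cdkn2b, an inhibitor of cyclin D kinases, had 11, 9.68 and 8.37 RPKM in DKO libraries, against 1.87, 3.35 and 2.72 RPKM in WT libraries (log2 fold change 1.56 ± 0.14, limma adjusted p = 6.1e-05), and Cdkn1a, another inhibitor, rose by 0.25 on the log2 scale. Summed over the list, cell cycle RPKM was 144, 141 and 140.2 RPKM in DKO libraries, against 274, 253 and 247 RPKM in WT libraries.

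Markers of mesenchyme and of mineralising cells, which Dispase was meant to remove, were present and lower in DKO. In bulk tissue, fewer cells of a type and less RNA per cell cannot be told apart. Of 25 tested mesenchymal genes 18 fell and 0 rose; the list summed to 1560, 1399 and 1214 RPKM in DKO libraries, against 2344, 2491 and 2204 RPKM in WT libraries. Of 15 tested odontoblast and osteoblast genes 14 fell and 0 rose, and that list summed to 857, 852 and 632 RPKM in DKO libraries, against 1989, 1621 and 1713 RPKM in WT libraries. Both sums were lower in every DKO library than in any WT library, lowest in DKO replicate 3, and no gene of either list was at 0 in any library. Dmp1, a matrix protein of odontoblasts and osteocytes, had 3.68, 4.56 and 3.92 RPKM in DKO libraries, against 37.4, 21 and 29.2 RPKM in WT libraries (log2 fold change -2.55 ± 0.16, limma adjusted p = 1.9e-05). Dspp, the precursor of the dentin matrix phosphoprotein that early ameloblasts also express, had 177, 188 and 175 RPKM in DKO libraries, against 499, 325 and 399 RPKM in WT libraries (log2 fold change -1.15 ± 0.12, limma adjusted p = 0.00028). Smpd3 and Col1a1 fell too (-1.77 and -1.18). The part of these cells in the falls of signals and transcription factors that mesenchyme also expresses was not tested.

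Markers of other cell types gave fewer or less stable changes. Of 16 tested endothelial genes 5 fell and 0 rose, and of 16 immune genes 5 fell and 0 rose, both near the 30.8% of all genes that fell. The endothelial genes Eng, Tie1, Kdr and Flt4 each lost their call without DKO replicate 2, without DKO replicate 3 or without WT replicate 3. Of 5 osteoclast genes 1 fell. All 5 tested red cell genes fell, but their sum was 695, 517 and 1187 RPKM in DKO libraries, against 1470, 1482 and 1350 RPKM in WT libraries, with DKO replicate 3 nearer to WT than the other DKO libraries, and without DKO replicates 1 and 2 only 1 of the 5 fell. Glial and neuronal genes gave 1 risen and 1 fallen of 7. The neuronal tubulin Tubb3 fell, with 26.6, 31.7 and 33.7 RPKM in DKO and 100.2, 61.8 and 82.9 RPKM in WT (log2 fold change -1.36 ± 0.15, limma adjusted p = 0.00031). The 4 salivary gland genes in the table were all below the filter, with a summed level under 1 RPKM in each library.

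**Figure D3:**
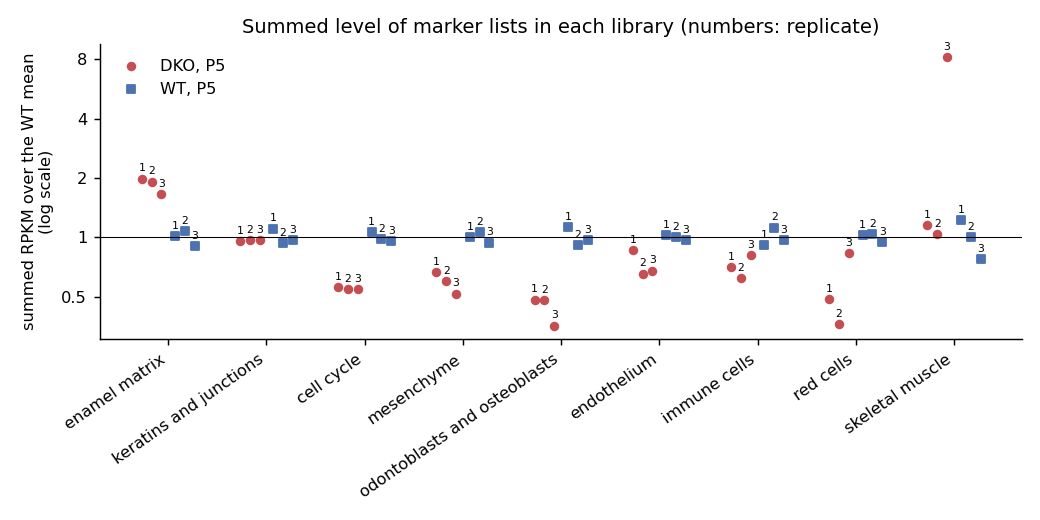
Summed RPKM of 9 marker lists in each P5 library, divided by the mean of the 3 WT libraries (vertical axis, log scale); circles are DKO libraries, squares WT libraries, and the small numbers give the replicate. Enamel matrix sums lie above WT in all 3 DKO libraries, cell cycle, mesenchyme and odontoblast sums below it, and skeletal muscle is high in DKO replicate 3 alone.

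Nts, encoding the secreted peptide neurotensin (chr10:102481756-102490418), showed the largest rise among the named genes. It had 208, 107 and 123 RPKM in DKO libraries, against 4.17, 6.69 and 7.6 RPKM in WT libraries, so the lowest DKO library was more than 10 times the highest WT library. Its log2 fold change was 4.33 ± 0.23 (limma adjusted p = 1e-05), and 4.35 after scaling in DKO replicate 3 alone. Other large rises were those of Kcna3, a voltage-gated potassium channel, with 15.3, 15.7 and 15.5 RPKM in DKO libraries, against 5.12, 5.31 and 5.26 RPKM in WT libraries (log2 fold change 1.40 ± 0.06, limma adjusted p = 2.7e-06), and Arrdc4, an arrestin-domain protein, with 80.3, 76.3 and 80.9 RPKM in DKO libraries, against 29.5, 31.3 and 29.1 RPKM in WT libraries (log2 fold change 1.37 ± 0.06, limma adjusted p = 2.7e-06). Both were nearly constant within a genotype. Rasgef1b, a guanine nucleotide exchange factor, Slc16a6, a monocarboxylate transporter family member, and Rprd2, a regulator of RNA polymerase II, rose by 1.21, 1.22 and 1.09 on the log2 scale. Among the largest falls, Crabp1, a retinoic acid binding protein, had 8.14, 10.1 and 3.99 RPKM in DKO and 23, 39.5 and 26.9 RPKM in WT (log2 fold change -1.91 ± 0.26, limma adjusted p = 0.0016) and Cpne1, a calcium-dependent phospholipid-binding protein, had 3.64, 3.21 and 3.89 RPKM in DKO and 14.3, 13.3 and 12.7 RPKM in WT (log2 fold change -1.66 ± 0.08, limma adjusted p = 3.4e-06). The actin-severing Scin, the sphingosine receptor S1pr3, the matrix protein Fbln7, the secreted Cthrc1 and the glycogen-binding Stbd1 fell by log2 values of -1.64, -1.64, -1.56, -1.57 and -1.53. The replication histone genes H2ac24 and H3c14 also fell (-1.66 and -1.56), but near-identical histone copies may share their reads, and H2ac24 did not pass without DKO replicate 2, WT replicate 2 or WT replicate 3 (limma adjusted p up to 0.078).

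Lists of basic cell functions differed from one another. Of 13 tested heat-shock chaperones 7 fell and 0 rose, among them Hsph1, with 4.23, 4.31 and 4.1 RPKM in DKO and 9.92, 9.44 and 9.53 RPKM in WT (log2 fold change -1.03 ± 0.06, limma adjusted p = 1.6e-05). Of 18 glycolysis genes 1 rose and 9 fell, including the phosphofructokinase Pfkl (-0.87). Cholesterol synthesis had 3 risen and 7 fallen of 22, the falls near the 30.8% of all genes tested. Its sterol sensor gene Insig1 was higher (0.82) and its enzyme gene Pmvk lower (-0.84). The unfolded protein response list gave 3 risen and 5 fallen of 25, and the secretory pathway list 2 and 3 of 39. Oxidative phosphorylation gave 1 risen and 2 fallen of 81, and cytosolic ribosomal proteins 0 and 4 of 82. Immediate-early genes gave 2 risen and 5 fallen of 17, the falls near the 30.8% of all genes. Basement membrane and collagen genes gave 6 and 3 of 23. Cornifying epithelium genes gave 0 risen and 2 fallen of 9 tested, and abundant non-coding RNAs 1 and 2 of 10, where the 1 that rose was Xist.

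Of the genes next to the 2 targeted loci, 7 of 12 tested near Hmgn2 and 5 of 7 near Hmgn1 fell, and 0 rose at either. Over all genes 30.8% fell and 7.35% rose. The median scaled log2 fold change was -0.24 near Hmgn2 and -0.35 near Hmgn1. With DKO replicate 3 as the only DKO library these medians were -0.22 and -0.32. Of those near Hmgn2, Dhdds, an enzyme gene of dolichol synthesis, fell most, with 3.83, 3.95 and 3.9 RPKM in DKO libraries, against 12.9, 10.9 and 10.5 RPKM in WT libraries (log2 fold change -1.34 ± 0.08, limma adjusted p = 8.3e-06). Of those near Hmgn1 it was Pcp4, a calmodulin-binding protein gene, with 4.94, 4.63 and 2.72 RPKM in DKO and 12, 14 and 10.2 RPKM in WT (log2 fold change -1.38 ± 0.16, limma adjusted p = 0.00075). The strain of DNA flanking the alleles is not given in the labels, and its part was not tested.

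**Figure D4:**
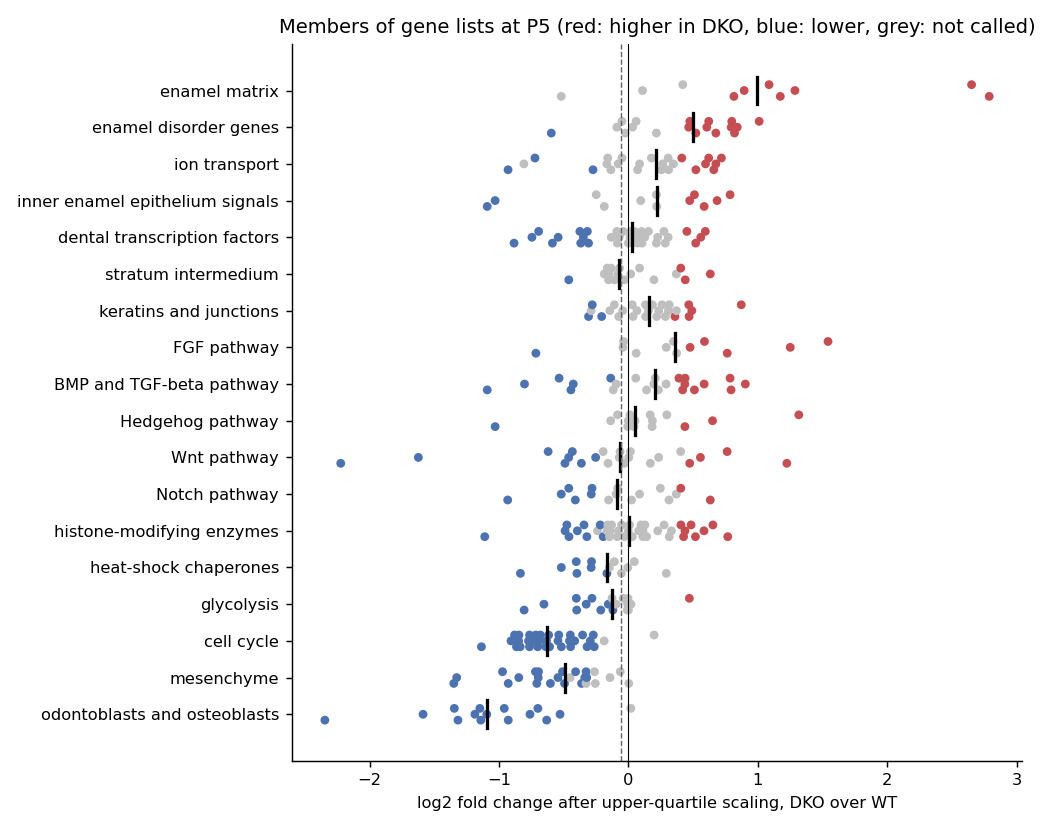
Log2 fold change after upper-quartile scaling (DKO over WT, horizontal axis) of the tested members of 18 gene lists; each point is 1 gene, red where it rose, blue where it fell and grey where it was not called, and the black bar is the list's median. The dashed line is the median of all genes tested, at -0.06; enamel matrix genes lie to its right, with a median of 0.99, and cell cycle genes to its left, with a median of -0.63.

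The genotype difference at P5 was then set against that at E17. The 2 tables were normalised separately and use different transcript sets, so each difference was taken within its own table and only the scaled log2 fold changes were compared; all 6 E17 libraries held both Xist and Y-linked RNA. Of 11088 genes tested at both stages, 4896 differed between stages (44.2%). Among all genes tested at both stages, 756 rose and 3468 fell at P5, and 740 rose and 172 fell at E17. Within those totals 84 rose at both stages and 78 fell at both. A further 195 fell at P5 and rose at E17, and 16 rose at P5 and fell at E17. Whether these overlaps exceed what the totals alone would give was not tested. Each difference was tested by a t-test on the fold changes and SEs of the 2 limma fits, with Satterthwaite degrees of freedom. Slc13a5 had a scaled log2 fold change of 0.62 at P5 and -1.57 at E17, a difference of 2.19 ± 0.14 (t-test on the limma fits, adjusted p = 6.5e-07). Fam20a had 0.84 at P5 and -0.37 at E17 (adjusted p of the difference = 8.1e-06 from the limma fits), although Fam20a did not pass at E17 itself. Negative at P5 and positive at E17 were Ascl5, with -2.22 and 1.18 (t-test on the limma fits, adjusted p of the difference = 2.7e-11), and Ccnd1, with -1.14 and 0.77 (same t-test, adjusted p = 6.7e-09). So were Irx1, with -0.88 and 0.74 (same t-test, adjusted p = 8.3e-07), and Rspo4, with -2.22 and 0.62 (same t-test, adjusted p = 3.1e-05), although Rspo4 did not pass at E17 itself. Scaled fold changes of Lamb3 were 0.82 at P5 and 0.01 at E17. Enam, Amtn, Csn3 and Mmp20 rose at P5 but were not tested at both stages.

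**Figure D5:**
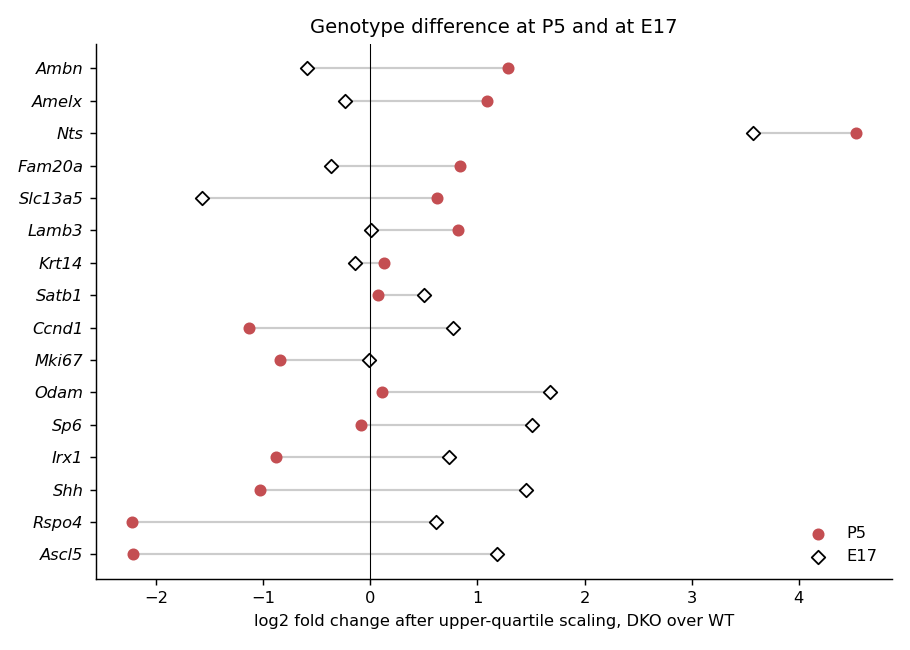
Log2 fold change after upper-quartile scaling (DKO over WT, horizontal axis) of 16 genes, with P5 as filled circles and E17 as open diamonds. Ambn, Amelx, Fam20a and Slc13a5 lie right of 0 at P5 and left of it at E17 (as deposited, Amelx stood at 0.01 at E17), whereas Shh, Irx1, Rspo4, Ascl5 and Ccnd1 lie left of 0 at P5 and right of it at E17. Ambn and Amelx had low levels at E17, with WT means of 5.65 and 5.06 RPKM and DKO means of 4.20 and 5.18 RPKM.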

How the data were processed

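Molar dental epithelium of 6 P5 samples (3 DKO, 3 WT by label) was sequenced as ribosomal-depleted RNA. The authors deposited 1 table per stage with a total alignment count per library and 1 value per transcript (38288 at P5), per the file headers. The values carry no unit name; the deposited transcript values were read as RPKM because low values fall on steps of 1 read per kilobase (71.1% to 72.6% of low values whole within 0.1 read). Partek and mm10 are named per the submitters' processing notes, and aligner and annotation were not given in the sources used here. The library protocol in the labels names no strand-marking kit, so overlapping antisense genes were not separated.

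From these values, transcript RPKM was summed per symbol; genes with at least 1 RPKM in at least 3 of 6 libraries were kept; log2(RPKM + 1) was tested with limma 3.58.1 (trend, R 4.3.3), as deposited and after upper-quartile scaling, with Benjamini-Hochberg adjustment at 0.05 over all genes tested. Gene positions and promoters are from RefSeq (GRCm38.p6). The fits were tested on simulated data. The genes, gene lists and comparisons were chosen with earlier results of these data known. The text names Hmgn1 and Hmgn2, genes of a fixed set of enamel, epithelial and marker genes, the 15 largest scaled rises and 15 largest falls among changed autosomal genes with at least 5 RPKM in the higher group and no overlap, and list members of smallest p; members of those lists named beyond this were chosen after their values were seen. The stage difference used scaled fold changes and SEs of both fits, with Satterthwaite degrees of freedom. Alternatives were other scalings, filters, pseudocounts, a replicate block and leaving out libraries. The P0 table was not analysed here.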

Additional observations from a re-analysis of the deposited data

Results flagged for a closer look

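The genotype difference at P5 was tested against that at E17 (scaled log2 fold change at P5 minus that at E17, adjusted over 11088 genes), and 44.2% of all genes passed. Of 13 genes of the fixed set tested at both stages 11 passed after scaling and 9 as deposited. The difference was 3.64 for Hmgn2, whose scaled log2 fold change was -4.04 at P5 and -7.68 at E17, and -0.35 for Hmgn1. Positive differences were 1.32 for Amelx, 1.88 for Ambn, 0.96 for Nts and 0.28 for Krt14. As deposited, Nts (0.51) did not pass (t-test on the limma fits, adjusted p = 0.074), and neither did Krt14, whose difference was then -0.24 (same t-test, adjusted p = 0.057). Negative differences were -2.48 for Shh, -1.60 for Sp6, -1.57 for Odam, -0.83 for Mki67 and -0.43 for Satb1. Other genes described in the text also passed under both scalings, with 2.19 for Slc13a5, 1.60 for Per1, 1.21 for Fam20a, 0.81 for Lamb3, -1.62 for Irx1, -1.91 for Ccnd1, -2.84 for Rspo4 and -3.40 for Ascl5. Ambn stood at 1.29 at P5 and -0.59 at E17, and Shh at -1.03 and 1.45. Enamel matrix levels at E17 were low, far under those at P5. Mean Ambn was 4.20 RPKM in DKO and 5.65 RPKM in WT at E17, and mean Amelx 5.18 and 5.06 RPKM. Nts was higher in DKO at both stages (4.54 and 3.57). The stages differ in age, in the transcript set of their tables and in how Xist and Y-linked RNA split between genotypes. The part of each in these differences cannot be told apart.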

How the results depend on the processing

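The joint rule gave 817 risen and 3422 fallen autosomal genes. Upper-quartile scaling alone gave 2151 risen, the deposited values alone 6444 fallen, and a minimum absolute log2 fold change of 1 left 22 and 165. With DKO replicate 3 as the only DKO library the counts were 465 and 1866; the cause was not tested beyond the smaller number of libraries. The median log2 fold change of all genes was -0.248 as deposited, -0.056 after upper-quartile scaling, -0.001 after median-of-ratios scaling and -0.158 after scaling to the summed RPKM of all genes but Amelx. Leaving out 1 library gave 675 to 944 risen and 2782 to 3241 fallen genes. No filter gave 840 and 2768, median-of-ratios scaling in place of the upper quartile 818 and 2737. The stage difference passed for 4896 genes after scaling and for 8901 as deposited. Replicate numbers did not pair the samples (correlations of deviations of -0.220, -0.073 and 0.047 for the same number), and a replicate block gave 758 and 3091. Of 206 named genes, 168 kept their call without the filter, where Amelx lost it, and 154 with DKO replicate 3 alone; calls of Hba-a1, Lor, Jup, Epcam, Jag2, Spry2, H2ac24 and Kdr, among others, were lost on leaving out at least 1 library. No called change turned round, but among genes that did not pass, Odam, Krt14 and Satb1 were at -0.12, -0.09 and -0.15 as deposited and at 0.11, 0.13 and 0.07 after upper-quartile scaling. Depth limits genes near 1 RPKM, where few reads stand behind a value.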

Other observations

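Genes of the circadian clock were looked at after Per1 appeared among the largest rises, so the list was chosen after values were seen and no test is given for it. Of 17 tested clock and clock-output genes 11 rose and 0 fell, with a median scaled log2 fold change of 0.48 beside -0.06 for all genes. Per1, a repressor of the clock's own activators, had 11.7, 11.3 and 10.7 RPKM in DKO libraries, against 4.84, 4.45 and 4.5 RPKM in WT libraries (log2 fold change 1.13 ± 0.07, limma adjusted p = 3.2e-06). Bhlhe40, a repressor that binds the same elements, had 16.2, 15.5 and 14.7 RPKM in DKO libraries, against 7.78, 7.21 and 6.14 RPKM in WT libraries (log2 fold change 1.04 ± 0.08, limma adjusted p = 9.4e-06). DKO libraries lay above WT libraries for both. The nuclear receptor repressors Nr1d1 and Nr1d2, the repressor Cry2 and the factor Ciart rose as well (log2 fold changes 1.05, 0.51, 0.76 and 0.66). The activators Arntl and Clock did not pass: Arntl had 2.57, 2.33 and 2.37 RPKM in DKO and 3.49, 3.45 and 2.76 RPKM in WT and Clock had 3.1, 3.06 and 3.2 RPKM in DKO and 3.6, 3.14 and 3.39 RPKM in WT. With DKO replicate 3 as the only DKO library, 8 of the 17 rose and 0 fell. At E17 the scaled log2 fold change of Per1 was -0.28 (adjusted p of the difference from P5 = 4e-08, limma fits). The labels give no hour of collection.

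Per1 and Bhlhe40 aside, the muscle gene Mylpf, a myosin light chain of fast fibres, had 1.78, 1.55 and 10.5 RPKM in DKO and 2.33, 1.24 and 1.15 RPKM in WT, high in DKO replicate 3 alone.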
